A study of Mus musculus with 550 samples.

Results

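The imprinted genes described here are 39 genes chosen by symbol, and all 39 were found among the 55228 gene names of the deposited count table. By common knowledge of mouse imprinting, 20 are classed as expressed from the paternal copy and 15 as expressed from the maternal copy. The other 4 (Blcap, H13, Gnas and Inpp5f) are of mixed type because different transcripts of the gene come from different copies. Some genes are imprinted in certain tissues only, so a class need not hold in the cells studied here. Transcriptomes of single cells were read by a modified Smart-seq2 protocol, which copies polyadenylated RNA along its whole length, from embryoid bodies (EBs), the aggregates in which mouse embryonic stem cells (ESCs) begin to differentiate. The ESCs were of the E14 line (strain 129/Ola) and were wild type (WT), Dnmt3a -/- (3AKO) or Dnmt3b -/- (3BKO), with one of the genes for the de novo DNA methyltransferases removed in each mutant. Cells were taken at day 3 and day 9 of EB growth in medium without the LIF that was present in the ESC cultures, and the labels place them in 2 batches. EBs were pooled before cells were sorted, several clones of a mutant may be present by the study's methods, and the labels do not tie a cell to a clone.

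In an imprinted gene the copy inherited from the mother and the copy inherited from the father are marked differently by DNA methylation in the germ line, and only one of the copies is transcribed. Most such genes lie in clusters, where a single imprinting control region sets maternal expression of some genes and paternal expression of others, often together with a long non-coding RNA. Many of the encoded proteins govern growth of the embryo and placenta, with paternally expressed genes such as Igf2 promoting growth and maternally expressed genes such as Cdkn1c, Igf2r and Grb10 restraining it. The E14 line is inbred and the deposited counts do not separate the alleles, so a level here is the sum over both copies. Words such as maternal or paternal refer to the known expressed copy and not to a measured allele, and DNA methylation was not measured in these cells.

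Of 550 cells, 486 held at least 50000 reads in genes, at least 2000 detected genes and no more than 50% mitochondrial reads, with 67 to 89 cells in each of the 6 groups and a median depth of 263901.5 reads (54720 to 1450202). The reads of all cells of 1 group and batch were summed into a pool, which gave 12 pools of 8071118 to 22867811 reads, and levels are CPM values, which scale a gene's reads to the total of the pool. There was 1 sample per group, so no test was made. The spread given is that between the batches, and 95% exact Poisson or binomial intervals account for counting error alone, because the protocol has no molecular identifiers and a molecule can give many reads. Batch 2 had higher median mitochondrial shares (9.09% to 13.5%) than batch 1 (3.58% to 6.31%). At day 9, Dnmt3a was at 26.1 and 23.9 CPM in the 3AKO pools against 177 and 144 CPM in WT, and Dnmt3b was at 15.9 and 16.8 CPM in the 3BKO pools against 155 and 189 CPM in WT, in batches 1 and 2. Dnmt3l, the partner of both enzymes, was at 81.4 to 298 CPM in the mutant pools of day 9 and at 53.3 and 35.3 CPM in WT. At day 3 Dnmt3a followed the labels of the batch 1 pools, at 25.8 CPM in 3AKO, 586.7 CPM in 3BKO and 455.2 CPM in WT. Dnmt3b was at 166.7 CPM in the 3BKO pool but also reduced in the 3AKO pool, at 260.9 CPM, against 600.1 CPM in WT. It thus set the mutants apart less than Dnmt3a did. In batch 2, Dnmt3a was at 335 CPM in the pool labelled 3AKO and at 12.8 CPM in the pool labelled 3BKO, against 268 CPM in WT, which goes against those labels, so the day 3 comparisons under the labels rest on batch 1.

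A member was called detected where at least 20% of the cells of a group held a read, before any thinning, in each batch. By this measure 26 of the 39 members were detected in some group, namely 12 of the 20 paternally expressed, 10 of the 15 maternally expressed and all 4 mixed genes, beside 10747 of all genes. The 13 others were H19, Igf2, Ascl2, Slc22a18, Usp29, Zim1, Magel2, Mkrn3, Peg12, Dlk1, Plagl1, Airn and Kcnk9. Together the 39 genes took 1250 CPM in WT cells at day 3 and 1891 CPM at day 9, of which paternally expressed genes gave 771.6 and 1379 CPM, maternally expressed genes 384.1 and 352.3 CPM, and mixed genes 94.05 and 159.8 CPM. The corresponding day 9 sums were 2375 CPM in 3AKO (paternal 1990, maternal 262.3) and 1781 CPM in 3BKO (paternal 1427, maternal 236.0). A cell thinned to 50000 reads held reads of a median of 12 members in every day 3 group, and of 10, 10 and 9 members in WT, 3AKO and 3BKO at day 9.

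Per kilobase of exon, the leading members in WT cells at day 3 were Phlda2 (103.3 CPM per kb), a maternally expressed brake on placental growth, and Snrpn (81.29), which encodes a protein of the spliceosome's small nuclear particles. Impact (36.27), a regulator of translation, and Mest (29.43), an enzyme of the alpha/beta hydrolase fold and a known mark of mesoderm, followed. By day 9 the order in WT was Snrpn (159.8 CPM per kb), Mest (85.45), Phlda2 (75.75) and the amino acid transporter gene Slc38a4 (52.81). In 3AKO cells of day 9 Mest led at 241.3 CPM per kb, ahead of Snrpn at 162.4. In 3BKO cells Snrpn (88.62), Impact (83.78), Slc38a4 (63.21) and Phlda2 (52.52) led, and Mest was at 38.41 CPM per kb. Of Snrpn's exon length, 34.1% is shared with other annotated genes, Snurf among them, so its count depends on how such reads were assigned.

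**Figure D1:**
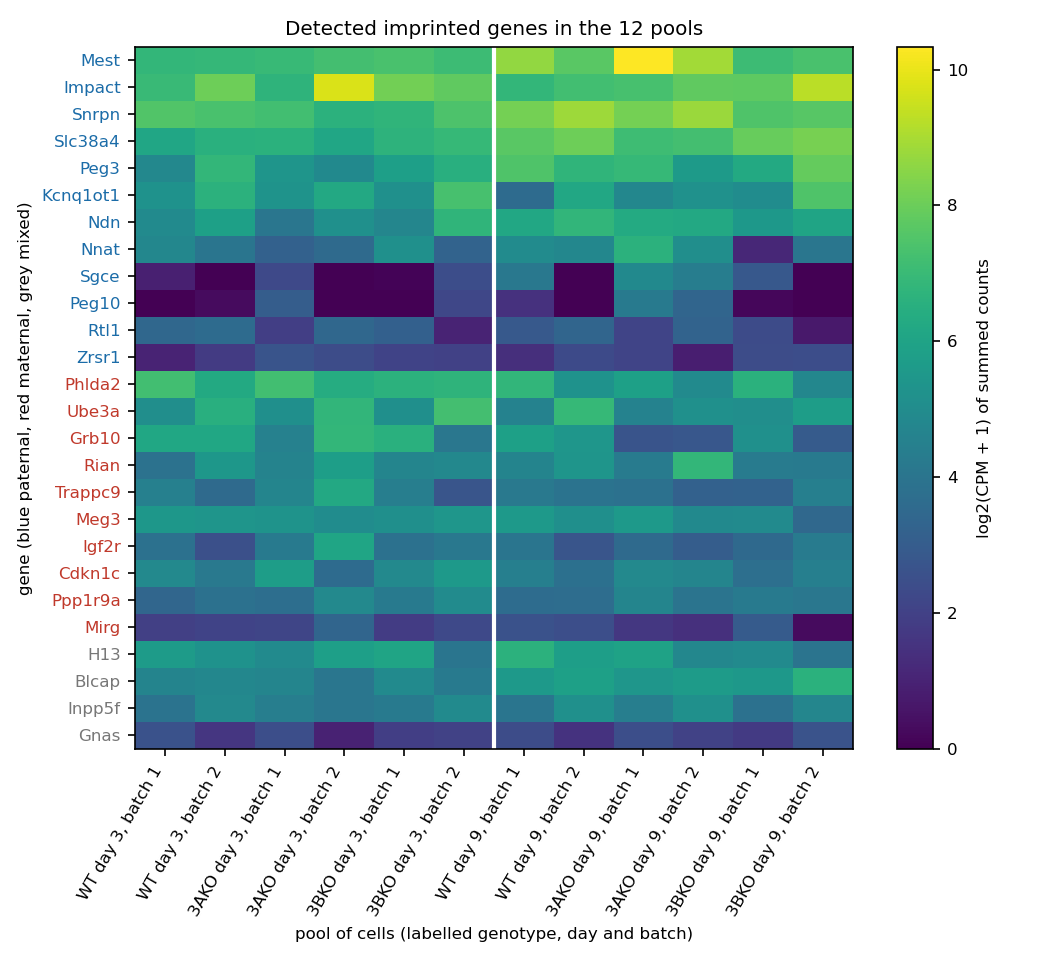
Levels of the imprinted genes in each of the 12 pools of cells, as log2(CPM + 1) of the summed counts on a colour scale, for the 26 detected genes. Genes are grouped by the expressed copy (blue paternal, red maternal, grey mixed) and pools by day, labelled genotype and batch. A reader can see the high levels of Snrpn, Mest, Impact and Slc38a4 in every pool. Phlda2 was high at day 3 but at 37.48 and 29.48 CPM in batch 2 of WT and 3AKO at day 9. The 3AKO pools of day 9 had Peg10 at 17.99 and 9.289 CPM and Grb10 at 5.375 and 5.957 CPM.

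The comparison of 3AKO with WT at day 9 asked how the levels of imprinted genes differed in cells that lacked Dnmt3a. Here and below, a gene was called where it was detected in at least 1 of the compared groups in each batch and its log2 ratio, on the log2(CPM + 1) scale, was at least 1 in size with the same sign in both batches. Peg10 and Mest, both paternally expressed, were called higher, which is 2 of 23 detected members beside 1.07% of all 9201 genes (98). Grb10, maternally expressed, was called lower, which is 1 of 23 beside 1.59% (146 genes). The median log2 ratio of the 23 members was -0.06, beside -0.10 for all genes, with 11 members above and 12 below 0. Paternally expressed members had a median of 0.30 (10 genes) and maternally expressed members one of -0.28 (9 genes). Peg10 (2.82) and Sgce (1.15), both paternally expressed, had 0 WT reads in batch 2. They met the detection limit there through the 3AKO cells alone. The count called higher and the paternal median thus draw on genes that the rule admitted where they were high, and they are a description only.

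Peg10 (chromosome 6, 4747306 to 4760517, plus strand of GRCm38), a gene derived from a retrotransposon and needed for the placenta, was at 17.99 and 9.289 CPM in the 3AKO pools of day 9. In WT it was at 1.793 and 0 CPM and in 3BKO at 0.1425 and 0 CPM, and all 41 WT reads came from 1 cell. The 3AKO pools thus stood above all 4 other pools of day 9. Relative to WT this was a log2 ratio of 2.82 (2.77 and 3.36 by batch), and one of 3.74 without the cell of each pool that held most of the gene's reads. Of thinned cells, 28.4% (25 of 88, interval 19.3% to 39%) held a Peg10 read in 3AKO, against 1.12% (1 of 89, 0.0284% to 6.10%) in WT and 0 of 67 in 3BKO (0% to 5.36%, and up to 4.48% by a limit of 3 cells).

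Sgce, which encodes epsilon-sarcoglycan and starts next to Peg10 on the opposite strand (chromosome 6, 4674350 to 4747207), is also expressed from the paternal copy. It was at 29.09 and 19.99 CPM in the 3AKO pools, 16.49 and 0 CPM in WT, and 6.198 and 0 CPM in 3BKO. The 3AKO pools were again the highest, but against WT the log2 ratio was 0.78 and 4.39 by batch, so the gene was not called. Reads of Sgce were present in 27.3% of thinned 3AKO cells (24 of 88, 18.3% to 37.8%) and in 5.62% of WT cells (5 of 89, 1.85% to 12.6%). In 3AKO, 11 of the 25 cells with Peg10 also held Sgce (44%), against 20.6% of the cells without Peg10. Ppp1r9a, the maternally expressed gene of the same cluster and a scaffold of the synapse, had a log2 ratio of 0.78 (1.05 and 0.28 by batch).

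Mest (chromosome 6, 30723547 to 30748465, plus strand) was at 1288 and 478.5 CPM in the 3AKO pools, 406.2 and 205.0 CPM in WT, and 135.1 and 165.7 CPM in 3BKO. The 3 genotypes did not overlap, with 3AKO highest and 3BKO lowest, although without the top cell of each pool 3BKO was above WT in batch 2 (log2 ratio 0.27). Relative to WT, 3AKO had a log2 ratio of 1.495 (1.66 and 1.22 by batch), and one of 1.596 without the top cell of each pool. Shares of cells with a read were close, at 80.7% of thinned 3AKO cells (interval 70.9% to 88.3%) and 71.9% of WT cells (61.4% to 80.9%). In 3AKO a single cell held 31.01% of the gene's reads, and in WT a single cell held 34.4%. Of the exon length of Mest, 23.1% is shared with Copg2 on the opposite strand, and no source used here states whether strand was used in counting.

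Grb10 (chromosome 11, 11930508 to 12038683, minus strand) encodes an adaptor that dampens insulin and growth factor signalling and is maternally expressed outside neurons. It was at 5.375 and 5.957 CPM in the 3AKO pools of day 9, against 57.94 and 42.58 CPM in WT and 35.55 and 6.892 CPM in 3BKO. The 3AKO pools lay below all others of that day, though batch 2 of 3BKO was close to them. The log2 ratio to WT was -3.02 (-3.21 and -2.65), and -3.26 without the top cells. A read was seen in 7.96% of thinned 3AKO cells (3.26% to 15.7%), in 32.6% of WT cells (23% to 43.3%) and in 20.9% of 3BKO cells (11.9% to 32.6%).

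The promoters of Grb10 and Mest are shown because, among the genes called at day 9, these have RefSeq promoters that differ in their number of CG, the dinucleotide that DNA methyltransferases act on. Each covers the 250 bases before and the 50 bases after an annotated start, 5′ to 3′ on the gene's strand, on GRCm38.p6, with every CG in capitals.
Grb10 promoter at chr11:12037371-12037670 (minus strand): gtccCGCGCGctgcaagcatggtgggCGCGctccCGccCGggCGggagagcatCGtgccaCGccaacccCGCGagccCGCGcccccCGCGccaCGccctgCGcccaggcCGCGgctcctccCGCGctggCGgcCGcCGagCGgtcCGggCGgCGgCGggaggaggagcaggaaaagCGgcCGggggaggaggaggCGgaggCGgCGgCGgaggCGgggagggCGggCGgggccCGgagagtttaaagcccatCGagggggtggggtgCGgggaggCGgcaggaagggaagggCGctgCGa
Grb10 promoter at chr11:12027922-12028221 (minus strand): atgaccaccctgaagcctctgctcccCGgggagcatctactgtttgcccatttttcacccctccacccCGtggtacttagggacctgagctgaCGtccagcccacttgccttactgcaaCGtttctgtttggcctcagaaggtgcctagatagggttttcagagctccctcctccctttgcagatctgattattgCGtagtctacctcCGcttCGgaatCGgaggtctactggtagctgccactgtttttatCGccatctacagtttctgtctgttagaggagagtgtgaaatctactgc
Mest promoter at chr6:30733256-30733555 (plus strand): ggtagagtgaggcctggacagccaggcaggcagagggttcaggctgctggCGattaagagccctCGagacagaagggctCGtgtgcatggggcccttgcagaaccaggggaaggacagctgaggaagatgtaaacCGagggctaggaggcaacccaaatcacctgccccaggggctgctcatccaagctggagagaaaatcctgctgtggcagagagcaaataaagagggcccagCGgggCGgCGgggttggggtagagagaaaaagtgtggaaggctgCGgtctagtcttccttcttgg
Mest promoter at chr6:30737800-30738099 (plus strand): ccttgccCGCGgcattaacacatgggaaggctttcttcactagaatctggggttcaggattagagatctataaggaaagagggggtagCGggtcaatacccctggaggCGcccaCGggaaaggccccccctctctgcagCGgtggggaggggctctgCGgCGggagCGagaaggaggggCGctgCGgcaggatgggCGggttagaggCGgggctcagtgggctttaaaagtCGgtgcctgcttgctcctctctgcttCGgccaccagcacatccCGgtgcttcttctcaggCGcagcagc
The first of these Grb10 promoters holds 45 CG, and 1.93% of all 32851 promoters of the same length hold as many or more. The second holds 9 CG (45.8% of promoters). The Mest promoters hold 8 (48.6%) and 17 CG (31.4%), and another Mest entry starts 3 bases after the latter. Over the 47 promoters of the 31 members matched by symbol the median was 13 CG, beside 7.0 over all promoters, and 97.9% held at least 1 CG beside 94.6%. The other 8 members were Peg10, Sgce, H19, Cdkn1c, Rtl1, Trappc9, Kcnk9 and Impact. Which start site the reads came from was not resolved by counts per gene.

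The remaining detected members of the 3AKO comparison were not called. Nnat, which encodes neuronatin, a small membrane protein of neural and endocrine cells, was at 98.18 and 33.72 CPM in 3AKO and at 30.44 and 26.60 CPM in WT. Its log2 ratio was 1.27 but only 0.33 in batch 2, and 1 cell held 38.6% of the 3AKO reads. Ratios at or below -0.5 in both batches were seen for Peg3 (-0.75; -0.57 and -1.10), a zinc finger gene, for H13 (-0.83; -0.69 and -1.02), the signal peptide peptidase, and for Slc38a4 (-0.64; -0.56 and -0.80). Phlda2 stood at -0.88 (-0.93 and -0.34) and the ubiquitin ligase gene Ube3a at -0.97, with 0.01 in batch 1 and -1.74 in batch 2. The cell cycle inhibitor gene Cdkn1c was at 0.52, Impact at 0.57, Inpp5f at 0.25, Gnas at 0.16 and Snrpn at 0.02. Meg3, Ndn, Blcap, Igf2r and Trappc9 lay between -0.10 and -0.49. Kcnq1ot1 (-0.06) and Rian (0.92) had batches far apart, at 1.18 and -0.97 for Kcnq1ot1 and at -0.38 and 1.43 for Rian.

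**Figure D2:**
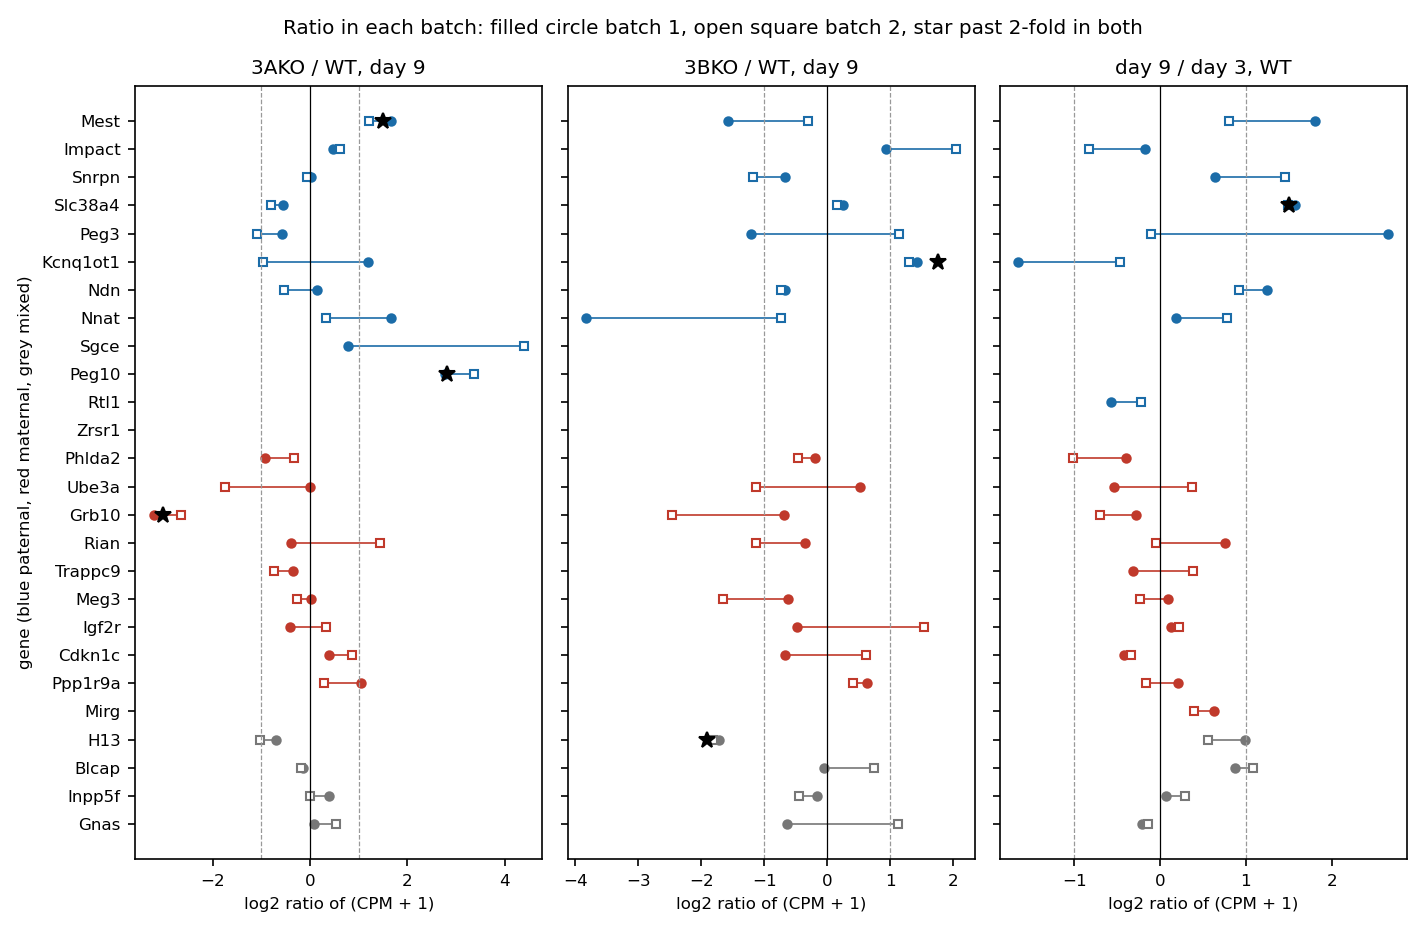
Log2 ratios of the detected imprinted genes for 3AKO and 3BKO to WT at day 9 and for WT at day 9 to day 3, on the log2(CPM + 1) scale, with a filled circle for batch 1, an open square for batch 2, and a star at the value over both batches for a gene past 2-fold in both. Peg10 at 2.82, Mest at 1.495 and Grb10 at -3.02 lie past 2-fold in both batches in 3AKO, while most other genes lie within 2-fold or on unlike sides in the batches.

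The comparison of 3BKO with WT at day 9 asked the same of Dnmt3b. Dnmt3a was lower in these cells too, at 63.03 CPM against 165.5 CPM in WT (log2 ratio -1.38; -1.06 and -1.66 by batch). The comparison is thus not one of Dnmt3b alone. Of 20 detected members, Kcnq1ot1 was called higher (background 2.86%, 264 of 9235 genes) and H13 lower (background 4.98%, 460 genes), and a single gene of 20 is near those background shares. The median of the 20 members was -0.24, beside -0.08 for all genes. Paternally expressed members had a median of -0.27 (8 genes) and maternally expressed members one of -0.43 (8 genes). The difference of these medians, 0.159, was -0.253 in batch 1 alone and 0.916 in batch 2 alone, so the batches did not share its sign.

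Kcnq1ot1 (chromosome 7, 143203458 to 143296549, minus strand) is the paternally expressed long non-coding RNA that silences its neighbours in cis. It was at 31.56 and 178.5 CPM in the 3BKO pools, 11.19 and 71.78 CPM in WT, and 26.73 and 36.25 CPM in 3AKO. Batch 2 was above batch 1 in each genotype, and 3BKO was above WT within each batch although the genotypes overlapped across batches. Relative to WT the log2 ratio was 1.42 and 1.30 by batch, and 1.76 for the batches together, which lies outside both batch values since the groups differed in how their reads were split over the batches. A single 3BKO cell held 44.4% of the reads, and without the top cell of each pool the ratio was 1.35 (1.56 and 0.76), no longer past 2-fold in batch 2. The call was also lost in thinned cells (0.77), with mean CPM per cell (0.94) and with a pseudocount of 10 (1.52). Of thinned cells, 43.3% (31.2% to 56%) held a read in 3BKO and 31.5% (22% to 42.2%) in WT.

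H13 (chromosome 2, 152669461 to 152708670, plus strand), whose long and short transcripts come from different copies, was at 29.49 and 14.83 CPM in 3BKO, 99.92 and 54.96 CPM in WT, and 61.56 and 26.66 CPM in 3AKO. Within each batch the order was WT, 3AKO, 3BKO. The log2 ratio of 3BKO to WT was -1.92 (-1.73 and -1.82), and -2.04 without the top cells. Reads were present in 29.9% of thinned 3BKO cells (19.3% to 42.3%) and in 55.1% of WT cells (44.1% to 65.6%). Of the exon length of H13, 8.55% is shared with a gene on the opposite strand.

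Other detected members with large ratios in 3BKO passed 2-fold in only 1 batch. Impact was at 429.7 CPM against 125.4 CPM in WT, with a log2 ratio of 1.77 made up of 0.93 in batch 1 and 2.04 in batch 2. Nnat was at 1.211 and 15.63 CPM in the 3BKO pools, a log2 ratio of -1.60 with -3.83 in batch 1 and -0.73 in batch 2. Mest had a ratio of -1.15 (-1.58 and -0.31), or -0.52 without top cells, Grb10 one of -1.34 (-0.69 and -2.47) and the non-coding RNA Meg3 one of -1.10 (-0.63 and -1.66). Igf2r, Gnas, Peg3, Blcap, Ube3a and Cdkn1c lay on unlike sides of 0 in the batches. The rest, Phlda2, Snrpn, Ndn, Rian, Ppp1r9a, Slc38a4 and Inpp5f, lay between -0.85 and 0.53.

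Members that missed the detection limit lay on both sides of WT in 3BKO at day 9, and their values rest on few cells. Mkrn3, an intronless zinc finger gene next to Magel2, was higher at 35.06 CPM (18.59 and 49.29 by batch) against 7.093 CPM in WT (6.734 and 7.78), with reads in 12 of 67 and 6 of 89 cells and 41.05% of the 3BKO reads in 1 cell. Usp29, a ubiquitin protease gene beside Peg3, was at 3.698 CPM against 0.2297 CPM, with reads in 11 of 67 and 4 of 89 cells. Zim1 was at 5.91 CPM against 0.05744 CPM, with reads in 2 cells of 3BKO, 1 of which held 90.5% of them, and in 1 of WT. On the lower side Peg12 had 1 read in 3BKO against 216 in WT. In 3AKO, Ascl2, a transcription factor gene of the placenta, was at 8.341 CPM against 1.034 CPM in WT, in 15 of 88 and 2 of 89 cells, and Plagl1 at 11.61 CPM against 0.8041 CPM, with 78.7% of the 3AKO reads in 1 cell.

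Further members below the limit had reads in WT but 0 in 3BKO at day 9. H19, a maternally expressed non-coding RNA of mesoderm and endoderm, had 538 WT reads (20.64 and 5.521 CPM) and 0 in both 3BKO pools, so it was at least 156-fold lower against a floor of 3 reads over the group. These reads were in 14 of 89 WT cells, of which 9 still held a read after thinning, and 1 cell held 60.8% of the unthinned reads. Igf2, the growth factor gene of the same cluster, had 70 WT reads and 0 in 3BKO (at least 20.3-fold lower), with 48.6% of the reads in 1 cell and 64.5% of its exon length shared with another gene.

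The transporter gene Slc22a18 was at least 66.1-fold lower in 3BKO (228 reads in WT), Magel2 at least 53.6-fold lower (185 reads) and Plagl1, a zinc finger gene, at least 8.12-fold lower (28 reads, all from 1 WT cell). In 3AKO these 5 genes had 17 to 277 reads. Beside these zeros, a list of 8 fibroblast and mesenchyme marker genes summed to 10.8 CPM in 3BKO (17.88 and 4.677 by batch), with any read in 4 of 8 and Col3a1, Postn, Lum and Dcn at 0. The same list summed to 248.8 CPM in WT (302.9 and 145.2), with reads of 8 of 8, and to 159.1 CPM in 3AKO (206.0 and 92.99). Vim, which many other cell types also express, held most of these sums, and without it the other 7 markers came to 16.3 CPM in WT, 42.3 CPM in 3AKO and 1.16 CPM in 3BKO. A list of 10 extra-embryonic endoderm markers stood at 22.15 CPM in 3BKO (28.64 and 16.55), 134.0 CPM in WT (80.11 and 237.2) and 122.8 CPM in 3AKO (183.3 and 37.46), with Afp at 0 in all of them. The sums of other marker lists did not all fall in 3BKO. Epiblast markers stood at 5103 CPM in 3BKO against 3554 CPM in WT. Zfp42 gave 2269 and 962.9 CPM of these, Fgf5 was lower at 2.113 against 61.05 CPM, and the 8 detected markers lay 4 above and 4 below WT. Ectoderm markers stood at 406.3 against 342.2 CPM. Of the 4 detected, 2 lay above WT and 2 below, namely Crabp2 (3.929 against 18.87 CPM) and Sox11 (3.269 against 16.54 CPM). Sox1 and Nes had 0 reads in 3BKO. Trophoblast markers stood at 103.7 against 49.57 CPM, of which Tfap2c gave 92.58 and 42.24 CPM. Meso-endoderm markers stood at 31.8 CPM in 3BKO (17.1 and 44.49 by batch) against 57.26 CPM in WT (61.61 and 48.94). In summed counts, fewer cells of a type and less RNA per cell cannot be told apart, and the part of cell types in these values was not tested.

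**Figure D3:**
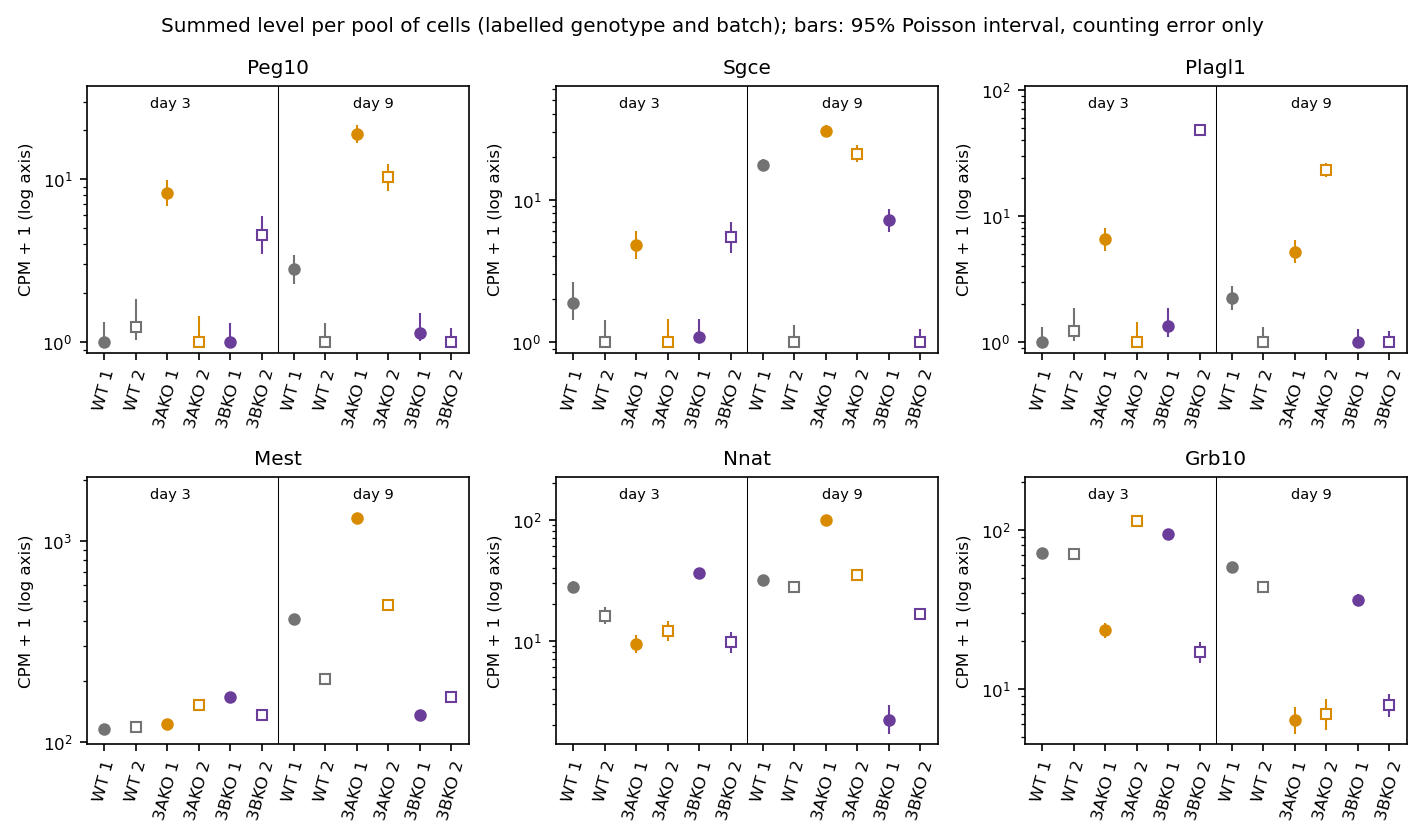
Levels of Peg10, Sgce, Plagl1, Mest, Nnat and Grb10 in each pool, as CPM + 1 on a log axis, with filled circles for batch 1, open squares for batch 2, colours for the labelled genotype and bars for the 95% Poisson interval. Grb10 at day 9 is between 5.375 and 5.957 CPM in 3AKO and between 42.58 and 57.94 CPM in WT, and Peg10 is above 9 CPM only in the 3AKO pools of day 9.

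WT cells were then compared between day 9 and day 3. Of 23 detected members, Slc38a4 was called higher (background 5.25%, 533 of 10162 genes) and 0 were called lower (background 2.19%, 223 genes), which is no more than the background share. The median of the members was 0.10, beside 0.19 for all genes, and turned to -0.02, -0.06 and -0.09 when mitochondrial reads were left out or with TMM or size factors, under which the median of all genes was 0.07, 0.03 and 0.00. Paternally expressed members had a median of 0.97 (9 genes) and maternally expressed members one of -0.03 (10 genes). Slc38a4 (chromosome 15, 96994820 to 97055956, minus strand) was at 204.4 and 264.5 CPM at day 9 against 67.74 and 93.21 CPM at day 3, with no overlap. The log2 ratio was 1.504 (1.58 and 1.495). In batch 2 of day 9 a single cell held 46.8% of the reads, and without the top cells the ratio was 1.30 (1.56 and 0.87), so it no longer passed in batch 2.

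Mest passed 2-fold with time in batch 1 only (1.53; 1.81 and 0.80), and so did Peg3 (1.24; 2.66 and -0.11) and Ndn, which encodes the MAGE family protein necdin (1.01; 1.25 and 0.92). Snrpn was at 0.97 (0.64 and 1.46). With Slc38a4, these 5 paternally expressed genes had the highest ratios of the 23 detected members. Kcnq1ot1 went the other way at -0.98 (-1.65 and -0.47), as did Impact at -0.56 (-0.17 and -0.83). Among maternally expressed genes the range was narrower, from Phlda2 at -0.44 and Grb10 at -0.41 to Mirg at 0.54. Dlk1, a paternally expressed gene of the Notch ligand family, had 76 reads at day 9 and 0 at day 3 (at least 14.3-fold higher), with 82.9% of the reads in 1 cell.

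At day 3, comparisons under the labels used batch 1, so a call needed 2-fold in that batch alone. In the pool labelled 3AKO, 3 of 27 detected members were called higher (Peg10, Zrsr1 and Plagl1, background 5.10%, 554 of 10858 genes) and 3 lower (Grb10, Rtl1 and Nnat, background 3.43%, 372 genes). Peg10 was at 7.249 CPM with 93 reads against 0 reads in WT, at least 27.2-fold higher, and Plagl1 at 5.534 CPM with 71 reads against 0, at least 20.8-fold higher. The log2 ratio was 1.63 for the splicing factor relative Zrsr1. It was -1.61 for Grb10 (22.37 against 70.58 CPM), -1.51 for the retrotransposon-derived Rtl1 and -1.56 for Nnat (8.341 against 26.58 CPM). In the pool labelled 3BKO, 1 of 23 members was called higher (Impact, log2 ratio 1.12, 280.0 against 127.8 CPM, background 3.44%, 366 of 10641 genes) and 0 lower (background 2.60%, 277 genes). Peg10 and Grb10 were thus called in the same directions as in 3AKO at day 9, although at each time against WT cells of that day, whereas Mest had a day 3 ratio of 0.09.

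The plates on which cells were sorted gave a view across both batches of day 3. Plate 209 held the WT cells, plate 211 held the batch 1 cells labelled 3AKO and the batch 2 cells labelled 3BKO, and plate 210 held the reverse. Dnmt3a was at 25.8 and 12.8 CPM on plate 211 and at 586.7 and 334.5 CPM on plate 210. Over both batches Dnmt3b was at 227.9 CPM on plate 211, 134.0 CPM on plate 210 and 567.1 CPM on plate 209. This view was chosen after the data were seen. On plate 211 Peg10 was at 7.249 and 3.548 CPM against 0 and 0.2363 CPM on plate 209, and it was the 1 of 25 detected members called higher (background 1.80%, 187 of 10408 genes). Peg10 met the detection limit through plate 211 alone. Its log2 ratio was 2.59 (3.04 and 1.88). Plagl1 was at 5.534 and 46.74 CPM on plate 211 and at 0 and 0.2363 CPM on plate 209, but it missed the detection limit in batch 2 and 1 cell held 81.8% of the plate 211 reads.

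Grb10 on plate 211 was at 22.37 and 16.02 CPM, against 70.58 and 69.70 CPM on plate 209 and 93.82 and 112.4 CPM on plate 210. The plate 211 values lay below all others of day 3. The log2 ratio of plate 211 to plate 209 was -1.79 (-1.61 and -2.06). Grb10 and Rtl1 (-1.91; -1.51 and -2.59) were the 2 of 25 members called lower (background 1.23%, 128 genes). Grb10 reads were present in 22.6% of thinned cells of plate 211, 56.96% of plate 209 and 72.2% of plate 210. On plate 210, Impact was the 1 of 23 members called higher (log2 ratio 1.46; 1.13 and 1.71, with 36.5% of the plate's reads in 1 cell, background 1.15%, 118 of 10290 genes) and 0 were called lower (background 0.583%, 60 genes). The genes called in the other comparisons were also read in the pools of day 3. Mest lay between 115.2 and 165.9 CPM in all 6, and H13 at 49.69 and 37.09 CPM on plate 209, 29.47 and 15.31 CPM on plate 211, and 65.12 and 56.50 CPM on plate 210. Kcnq1ot1 was at 34.92 to 38.12 CPM in the batch 1 pools and at 73.60 to 159.2 CPM in the batch 2 pools. Slc38a4 was at 68.89 to 119.2 CPM in the mutant pools of day 3, and later at 138.7 and 151.3 CPM in 3AKO and 242.3 and 292.7 CPM in 3BKO. Under the batch 2 labels the ratios of Peg10, Grb10, Plagl1 and Impact took the other sign.

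Genes of 1 imprinted cluster were next set beside each other as the share of the cluster's reads that fell in its maternally expressed genes. This share compares genes and not alleles. Reads were not scaled to exon length, so a long gene weighs more than a short one. The exons of Kcnq1ot1 cover 93.1 kb and those of Phlda2 1.12 kb, and in WT at day 9 they were at 0.3437 and 75.75 CPM per kb. In the Kcnq1 cluster, where Cdkn1c, Phlda2, Ascl2 and Slc22a18 are maternally and Kcnq1ot1 paternally expressed, the maternal genes held 77.6% of reads in WT at day 9 (92.5% and 45.4% by batch), 73.4% in 3AKO (79.1% and 62.8%) and 41.2% in 3BKO (77.98% and 21.04%). Batch 1 was above batch 2 in all 6 groups. The day 9 genotypes ran from 77.98% to 92.5% in batch 1 and from 21.04% to 62.8% in batch 2. In batch 2 of 3BKO, 1 cell held 51.1% of the Kcnq1ot1 reads and 1 cell held 92.9% of the Cdkn1c reads. The day 3 shares were 68.99% in WT (82.7% and 48.8%), 76.1% in the group labelled 3AKO and 60.7% in the group labelled 3BKO. Phlda2 gave most of the maternal reads, and 30.7% of the exon length of Cdkn1c is shared with a gene on the opposite strand.

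In the Snrpn-Ube3a cluster the paternally expressed genes dominated. Ube3a held 11.1% of reads in WT at day 9 (5.68% and 17.1%), 5.83% in 3AKO (5.55% and 6.12%) and 13.6% in 3BKO (12.1% and 14.5%), against 20.5% to 29.8% at day 3. Over the batches of day 9, WT overlapped both mutants, while 3AKO lay below 3BKO. Of the exon length of Ube3a, 27.3% is shared with genes on the opposite strand, Snhg14 among them. In the Peg3 cluster Zim1 held at most 4.02% of reads in any group. In the Igf2r-Airn cluster Igf2r, the receptor that clears Igf2, held 93.03% to 100%, and Airn was seen in 2 reads in WT at day 3 and 17 reads in 3AKO at day 9.

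In the Peg10-Sgce cluster the 3AKO cells of day 9 had the lowest share. Ppp1r9a, its maternally expressed gene, held 34.2% of reads in 3AKO (34.5% and 33.6%), 49.2% in WT (38.4% and 100%) and 85.4% in 3BKO (74.2% and 100%). In batch 1 the 3AKO and WT shares were close, and in batch 2 WT and 3BKO had 0 reads of Peg10 and Sgce. In the Dlk1-Meg3 cluster the maternally expressed non-coding RNAs Meg3, Rian and Mirg, of which Rian hosts small nucleolar RNAs and Mirg microRNAs, held 87.4% of reads in WT at day 3 and 89.05%, 94.4% and 94.8% in WT, 3AKO and 3BKO at day 9. In the Igf2-H19 cluster H19 held 88.5% of reads in WT at day 9 (85.7% to 90.9%) and 81.7% in 3AKO (72.4% to 89%), and 3BKO had 0 reads of either gene.

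**Figure D4:**
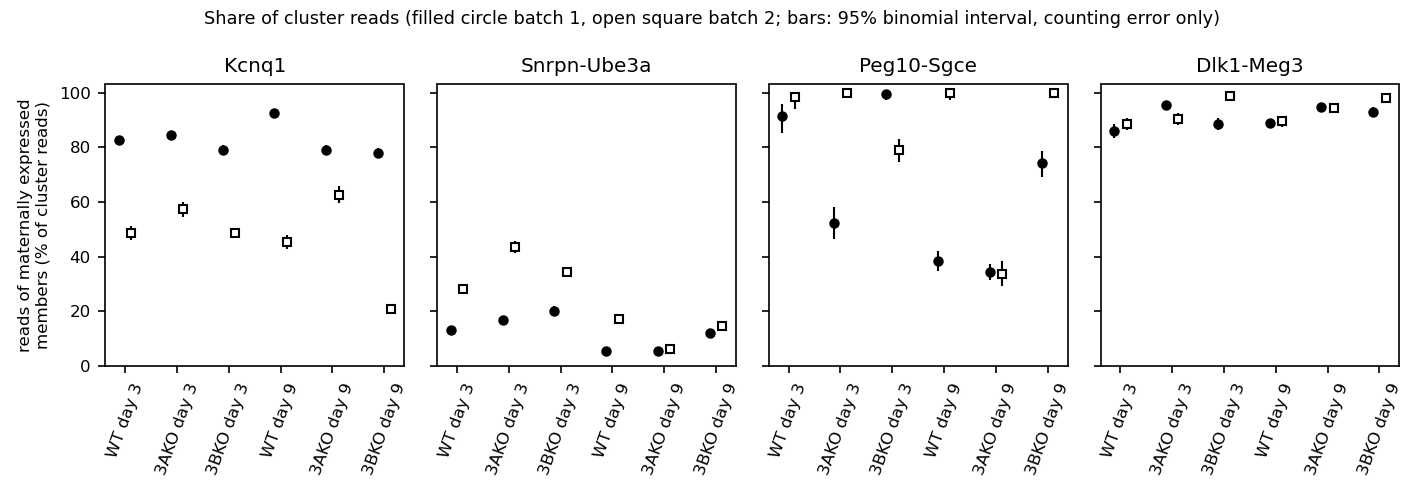
Share of reads of each imprinted cluster that fell in its maternally expressed genes, in percent, for 4 clusters, with filled circles for batch 1, open squares for batch 2 and bars for the 95% binomial interval. The Kcnq1 cluster runs from 92.5% in batch 1 of WT at day 9 to 21.04% in batch 2 of 3BKO, and its batch 1 points lie above its batch 2 points in every group.

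Within cells, genes of a cluster were read for being seen together. In WT at day 3, 29 of the 32 thinned cells with Rian also held Meg3 (90.6%), beside 52 of all 79 cells. The share of Rian cells with Meg3 was 70.6% and 75.8% in the groups labelled 3AKO and 3BKO at day 3, and 70%, 65.7% and 47.4% in WT, 3AKO and 3BKO at day 9. In the same order, Meg3 was held by 50 of 83 and 51 of 80 of all cells, and by 48 of 89, 42 of 88 and 18 of 67. The shares of Rian cells are thus not comparable between groups without these base counts. In the Kcnq1 cluster 84.6% of WT day 3 cells with Cdkn1c held Phlda2, against 58.5% of the cells without it, and the shares at WT day 9 were 45.5% and 41.8%. Across WT cells of day 3, the median Spearman rho was 0.15 for 10 pairs of the same cluster and 0.03 for 200 other pairs. The highest same-cluster value was that of Meg3 and Rian at 0.38, and Snrpn and Ndn had one of 0.31. In the other groups the same-cluster median lay between -0.01 and 0.17. The pairs share cells and depth, the counts are sparse, and correlations of this size are given as a description only.

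Some members differed between the batches in the same direction in several groups. The share of all genes that did so was not counted, so the numbers of members are not read as particular to imprinted genes. In each of the 4 groups whose cells of both batches came from 1 plate (WT at day 3 and all groups of day 9), batch 2 lay above batch 1 for 6 of the 26 detected members (Kcnq1ot1, Ube3a, Slc38a4, Blcap, Inpp5f and Impact) and below it for 4 (Phlda2, Sgce, Meg3 and H13). The share of members that differed at least 2-fold between the batches of a group was 26.1% in WT at day 3 (all genes 26.9%), 25.0% in WT at day 9 (24.3%), 22.7% in 3AKO at day 9 (13.5%) and 38.9% in 3BKO at day 9 (28.5%). In the groups labelled 3AKO and 3BKO at day 3 it was 45.5% (21.1%) and 31.8% (33.5%).

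Genes that act on imprints and other imprinted genes were read by the same rule. Of 14 genes for keeping or erasing imprints, 12 were detected at day 9 and 0 were called in 3AKO, where 11 of 12 ratios were below 0 with a median of -0.59, beside 5441 of 9201 below 0 and a median of -0.10 for all genes. The median in 3BKO was -0.35 (all genes -0.08), and in WT with time Uhrf1, the partner of Dnmt1, was called lower (-1.52), 1 of 12 beside 2.19% of all genes. Of 36 further imprinted genes, 11 were detected in the mutant comparisons of day 9, with 0 called in 3AKO and Snhg14 called lower in 3BKO (-0.85 over both batches, -1.41 and -1.25 by batch), 1 of 11 beside 4.98%. With time in WT, Cd81 (1.43), Pon2 (1.67) and Snhg14 (1.35) were called higher, 3 of 14 beside 5.25%, and Copg2 (-2.02), which overlaps Mest, was called lower, 1 of 14 beside 2.19%. Of 18 genes that flank the clusters, 10 were detected and 0 were called in either mutant at day 9, and Mrpl23, which lies near H19, was called higher with time in WT (1.69), 1 of 11 beside 5.25%. At day 3, Tet3 (1.06) and the imprinted Ddc (1.21) were called higher in the batch 1 pool labelled 3BKO (1 of 13 and 1 of 14 beside 3.44%), and 0 genes of these 3 lists were called in the one labelled 3AKO.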

How the data were processed

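Single cells were profiled with a modified Smart-seq2 protocol. Per the submitters' processing notes, reads were handled with FastQC (0.11.2), Trim Galore (0.5.0), STAR (2.7.1a) and featureCounts (1.6.1) on GRCm38, and the authors deposited raw counts per gene and cell. Whether strand was used is not given in the sources used here. In the count table, 26 columns matched no sample and were left out. Cells with at least 50000 reads, at least 2000 genes and at most 50% mitochondrial reads were kept, and their counts were summed by group and batch. Log2 ratios used CPM plus a pseudocount of 1, which understates changes of low genes. Shares of cells were computed after each cell was thinned to 50000 reads. With 1 sample per group no test was run, and genes were called at 2-fold in both batches with detection in 20% of cells of a compared group. Named are all members detected in a group, with values per pool for those called at day 9 or with time in WT, and H19, Igf2, Meg3, Dlk1, Cdkn1c, Airn and Kcnq1ot1 in any case. Genes of other lists are named only where called. Mkrn3, Usp29, Zim1, Peg12, Ascl2, Plagl1, Slc22a18 and Magel2, below the detection limit, were named after their values were seen. Members, expressed copies and lists were chosen with earlier results of these data known. Where a floor is needed, 3 reads over the group were used. Gene coordinates and exon lengths came from a GENCODE annotation of GRCm38, and promoters from RefSeq. Scaling alternatives used TMM factors from edgeR (4.0.16) and size factors from DESeq2 (1.42.0) in R (4.3.3), and all else used Python (3.11.15) with NumPy (2.4.6), pandas (2.3.3), SciPy (1.17.1) and matplotlib (3.10.9).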

Additional observations from a re-analysis of the deposited data

Results flagged for a closer look

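Mest and Nnat lay on opposite sides of WT in the mutants at day 9, in both batches of each. The log2 ratio of Mest was 1.495 in 3AKO and -1.15 in 3BKO. Without the cell with the highest share of the gene's reads in each pool, the 3BKO ratio of Mest was -0.52, with -0.98 in batch 1 and 0.27 in batch 2, so the sides then held in batch 1 only, and 39.3% of the WT batch 2 reads were in 1 cell. The median Mest level of single cells ran the other way, at 128.2 CPM in 3BKO and 101.1 CPM in WT. The log2 ratio of Nnat was 1.27 in 3AKO and -1.60 in 3BKO, and without the top cells these were 0.78 (0.95 and 0.47 by batch) and -2.11 (-4.27 and -1.08). Both mutants were read against the same WT cells and the difference between them was not tested. With 1 sample per group, no group was large enough for a check of single samples that stand apart.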

How the results depend on the processing

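No paired analysis was possible because each group was 1 sample and its replicate number was given in accession order. Values called unmoved stayed within the spread of the batches, or within 1.5 times for counts. Of 154 alternative values of the main results 111 did not move and 43 did. Of 1342 for single genes 1129 did not move, 144 moved, 24 lost and 41 gained a call, and 4 took the other sign. Of 161 cluster shares 94 did not move and 67 did. The cause was not tested. For 3AKO at day 9 the members' median became 0.048 in batch 1 alone, 0.11 with mean CPM per cell and 0.15 in thinned cells, and the count of called members became 7 in batch 1, 9 in batch 2 and 1 with detection in 40% of cells. Peg10 lost its call with a pseudocount of 10 (1.13), and Peg10 and Grb10 with detection in 40% of cells, which left Mest. For 3BKO at day 9 the median became -0.55 in batch 1, -0.43 with detection in 40% of cells and -0.43 without top cells. Its count became 5 in batch 1, 14 in batch 2, 1 in thinned cells, 1 with a pseudocount of 10 (Kcnq1ot1 lost in both) and 6 with detection in 10% of cells. The 3BKO difference of paternal and maternal medians took the other sign in batch 1 (-0.253) and with mean CPM per cell (-0.052). These values count as unmoved only because the batches lay far apart. For WT over time the median became 0.22 with a stricter cell filter, 0.26 in batch 2, -0.019 without mitochondrial reads, -0.055 with TMM factors, -0.091 with size factors, 0.22 with detection in 10% of cells and 0.009 without top cells. Its count became 0 with the stricter filter and without top cells, 5 in batch 1, and 4 in batch 2 and with detection in 10% of cells. The difference of the paternal and maternal medians became 0.80 with the stricter filter, 0.73 in batch 1, 0.76 in batch 2, 1.15 in thinned cells, 0.90 with a pseudocount of 10, 0.72 and 1.03 with detection in 10% and 40% of cells, and 1.14 without top cells. For the day 3 pool labelled 3AKO the count became 1 with a pseudocount of 10, 3 with detection in 40% of cells and 3 for plate 211 in both batches. The plate alternative was chosen after seeing the data. Peg10, Zrsr1 and Plagl1 lost their calls in thinned cells (2.63, 1.67 and 2.15) and with a pseudocount of 10 (0.79, 0.475 and 0.635). All of them were also lost with detection in 40% of cells, and Zrsr1 and Plagl1 without a cell filter. For the day 3 pool labelled 3BKO it became 2 without a cell filter or with a pseudocount of 0.1, 7 in batch 2 under its labels, 0 with mean CPM or without top cells, and 4 with detection in 10% of cells. Under the day 3 labels of batch 2, the 3AKO ratios were -0.31 for Peg10, 0.68 for Grb10 and -0.31 for Plagl1, and the 3BKO ratio was -0.25 for Impact. The values of the 13 members below the detection limit rest on few cells.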
